A study of Mus musculus with 4 samples.

Results

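The genes Acacb, Acsl1, Acsl5, Acsl6, Hk1, Pdk1 and Rptor handle fatty acids, glucose and nutrient signalling. They hold 17 of the 10000 regions in a table of captured methylated DNA from CD4+ T cells. The members are all regions that the table assigns to one of these 7 gene symbols, and the table as a whole, under 5377 gene identifiers, is the background. Rptor has 6 regions, Acacb 4, Acsl1 3, and Acsl5, Acsl6, Hk1 and Pdk1 have 1 each.

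Genomic DNA came from 4 sorted populations of female Balb/c mice, with 1 library for each. Th17 cells were CD3+ CD4+ with low CD45RB and secreted IL-17A without interferon gamma. Treg cells were CD3+ CD4+ CD25++, Th1 cells were CD3+ CD4+ with low CD45RB and secreted interferon gamma without IL-17A, and naive cells were CD3+ CD4+ with high CD45RB. All 4 were taken from spleen and lymph nodes and given PMA (10 ng/ml) plus ionomycin (500 ng/ml) over 3 h, Treg cells after the sort and the other populations before it. Treg cells were therefore defined by a surface receptor and not by Foxp3, and the helper subsets by what they secreted after stimulation. The labels used here give no age, no number of mice per library and no batch, so the library and the population cannot be told apart.

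Methylated fragments were captured with a methyl-CpG-binding protein, which holds DNA more firmly the more methylated CpG sites a fragment carries. A region's signal is its number of reads times a constant of the library. One read was worth 0.352 units in the Treg library, 1.68 in Th1 and 0.996 in naive, and the libraries held 74571, 19548 and 34277 reads over the table in that order. Every region of the table is listed at 0 in Th17, the 17 included, so nothing about the 7 genes in Th17 cells can be read beyond that listing. The depth of the Th17 library cannot be recovered from it. In bulk DNA, fewer methylated cells and fewer methylated CpG sites per cell cannot be told apart. Of 29 marker genes of the sorted populations, of CD4 T cells in general and of B and myeloid cells, 8 had a region. These were 4 of 6 Th17, 3 of 4 B cell and 1 of 4 myeloid markers. None was a Treg, Th1, naive or general CD4 T cell marker. Methylated DNA does not show which cell type is present, so the labels could not be checked this way.

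T cells change their fuel use when they leave the resting state. Resting and regulatory T cells rely largely on oxidation of fatty acids and pyruvate in mitochondria, while activated helper T cells raise glycolysis and fatty acid synthesis under the control of the kinase complex mTORC1. Acacb encodes the acetyl-CoA carboxylase of the mitochondrial surface, whose product malonyl-CoA blocks the entry of fatty acids into mitochondria. The acyl-CoA synthetases Acsl1, Acsl5 and Acsl6 couple long-chain fatty acids to coenzyme A, the step that commits them to oxidation or to lipid synthesis. Hk1, a hexokinase, traps glucose in the cell by phosphorylation. Pdk1 encodes a kinase that switches off pyruvate dehydrogenase and so keeps pyruvate out of the mitochondrial cycle, and Rptor encodes Raptor, the subunit of mTORC1 that recruits its substrates. DNA methylation over gene bodies is common in expressed and silent genes alike, whereas methylation of a CpG-rich promoter goes with silencing.

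Of the 17 regions, 15 lay in introns, 2 in exons and 0 in promoters. Over the table, 78.6% of regions were intronic, 16.6% exonic and 4.77% in promoters. The member regions were 198 to 433 bp long, with a median of 284 bp, against 249 bp over the table. Each held 8 to 19 reads over Treg, Th1 and naive, and the median of 13.0 was that of the table. Across the 17 regions length and total reads had a Pearson r of 0.28 and a Spearman rho of 0.27, close to the 0.29 and 0.27 over all regions. None of the 17 overlapped another region of the table. The nearest neighbour lay 5708 to 210348 bp away.

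Summed over the 17 regions there were 133 Treg, 28 Th1 and 63 naive reads. The mean signal per region was 2.76 in Treg (interval 2.31 to 3.27), 2.77 in Th1 (1.84 to 4.0) and 3.69 in naive (2.84 to 4.72). These and all later intervals are exact 95% counting intervals. They cover counting error only, with no replicate behind them. Over the table the mean signals were 2.63 in Treg, 3.29 in Th1 and 3.41 in naive. The ratio of the members' summed signal was 0.747 for Treg over naive (interval 0.549 to 1.02), 0.996 for Treg over Th1 (0.659 to 1.56) and 0.750 for Th1 over naive (0.463 to 1.19). All 3 intervals include 1, so no difference between these libraries over the 7 genes together was detectable at this depth.

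**Figure D1:**
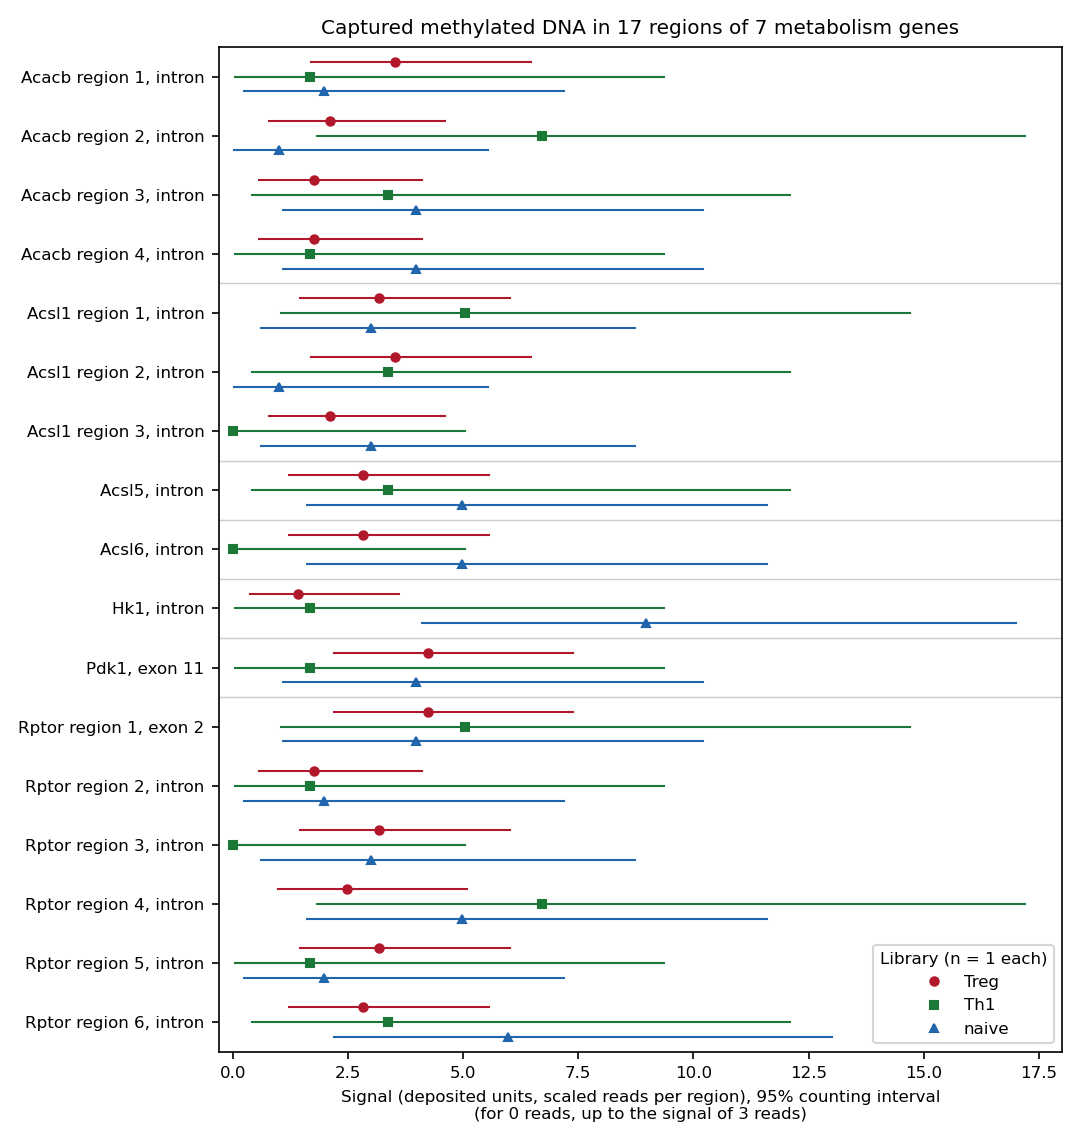
Signal of each of the 17 regions in the Treg (red circles), Th1 (green squares) and naive (blue triangles) libraries, in deposited units, with the exact 95% counting interval as a line, or for 0 reads a line up to the signal of 3 reads. One Th1 read is worth 1.68 units, which makes most Th1 lines long, and Hk1 is the only region whose Treg and naive lines do not meet.

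The 4 Acacb regions were all intronic, on chromosome 5, and spanned 65639 bp. RefSeq places the gene on the plus strand, so they are described here from the 5′ side to the 3′ side. The first (114616649 to 114616871, 223 bp) held 10 Treg reads, 1 Th1 read and 2 naive reads, signals of 3.52, 1.68 and 1.99. The second (114622579 to 114622932, 354 bp) held 6 Treg, 4 Th1 and 1 naive reads, signals of 2.11, 6.72 and 0.996. The 2 regions lay only 5708 bp apart, and the library with the highest signal was Treg in the first and Th1 in the second. The counting intervals of the libraries overlapped in both regions, so neither order was resolved. In the third (114651574 to 114651784) there were 5 Treg, 2 Th1 and 4 naive reads, and in the fourth (114681896 to 114682287) 5, 1 and 4. Treg stood at 1.76 units in both and naive, the highest library, at 3.98, while Th1 stood at 3.36 in the third and 1.68 in the fourth.

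Over the 4 Acacb regions together the libraries were close. The mean signal per region was 2.29 in Treg (interval 1.5 to 3.36), 3.36 in Th1 (1.45 to 6.62) and 2.74 in naive (1.37 to 4.90). The Th1 over naive ratio of the second region was 6.75, the largest among the 17 regions, but it rests on 4 reads against 1 and its interval runs from 0.668 to 332. Per 100 bp of region, the mean signal over Treg, Th1 and naive was 1.44 in the third region and 0.632 in the fourth, the lowest among the 17.

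The 3 Acsl1 regions were intronic as well, on chromosome 8, within 28368 bp. Acsl1 is the synthetase that predominates in tissues with heavy fatty acid use. Its first region (47586160 to 47586590, 431 bp) held 9 Treg, 3 Th1 and 3 naive reads, signals of 3.17, 5.04 and 2.99. Its second (47605282 to 47605565, 284 bp) held 10 Treg, 2 Th1 and 1 naive reads, signals of 3.52, 3.36 and 0.996. This was the only one of the 17 regions with a Treg signal more than 3 times that in naive, a ratio of 3.54 with an interval of 0.503 to 154. In the third (47614330 to 47614527, 198 bp) there were 6 Treg, 0 Th1 and 3 naive reads. Here Treg stood at 2.11 and naive at 2.99, both below the 5.04 units that 0 Th1 reads still allow, so a lower Th1 level was not detectable. Summed over the gene, Treg over naive was 1.26 (0.531 to 3.46) and Th1 over naive 1.21 (0.302 to 4.41).

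Acsl5, the synthetase of mitochondria and endoplasmic reticulum that is abundant in gut, had 1 intronic region on chromosome 19 (55340382 to 55340670). It held 8 Treg, 2 Th1 and 5 naive reads, signals of 2.82, 3.36 and 4.98. Acsl6, the synthetase known mainly from brain, had 1 intronic region on chromosome 11 (54153123 to 54153528) with 8 Treg, 0 Th1 and 5 naive reads. The Acsl5 and Acsl6 regions thus had the same Treg and naive reads and differed by 2 Th1 reads, and by length, 289 against 406 bp. For both, Treg over naive was 0.566 (0.163 to 2.20). Per 100 bp the naive signal was 1.72 in Acsl5 and 1.23 in Acsl6. The 0 Th1 reads of Acsl6 again allow up to 5.04 units, above its naive signal of 4.98. Of Acsl3 and Acsl4, other long-chain synthetases on the fatty acid list, no region was among the 10000 analysed.

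Hk1 had the clearest difference between libraries among the 7 genes. Its single, intronic region (chromosome 10, 61827001 to 61827261, 261 bp) held 4 Treg reads, 1 Th1 read and 9 naive reads. The signals were 1.41 in Treg (interval 0.384 to 3.61), 1.68 in Th1 (0.0426 to 9.37) and 8.97 in naive (4.10 to 17.0). Treg was lower than naive by a ratio of 0.157 with an interval of 0.0354 to 0.563, and this was 1 of 51 intervals, for 17 regions and 3 pairs of libraries, that left out 1. Th1 over naive was 0.187, but on 1 Th1 read its interval of 0.00428 to 1.35 includes 1. Per 100 bp the naive signal was 3.43, the highest of the 17, followed by 2.97 in the last Rptor region. An exact binomial test of the Treg and naive reads, which compares the 2 libraries and not the cell types, did not call Hk1 after Benjamini-Hochberg adjustment over the 10000 regions. That test called only 1 of all 10000 regions as lower in Treg than in naive, so the missing call says little about Hk1. Without adjustment, 4.45% of all regions had an interval below 1 for Treg over naive. The nearest other region of the table lay 51309 bp away, in Hkdc1, a neighbouring gene of the hexokinase family.

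The Pdk1 region is labelled exon 11 (chromosome 2, 71741206 to 71741492, 287 bp), 1 of 55 regions with that exon number in the table. It held 12 Treg reads, 1 Th1 read and 4 naive reads, signals of 4.23 in Treg (2.19 to 7.39), 1.68 in Th1 (0.0426 to 9.37) and 3.98 in naive (1.09 to 10.2). Treg and naive were thus almost level, with a ratio of 1.06 (0.322 to 4.52). Treg over Th1 was 2.52 on a single Th1 read (0.372 to 108). Hk1 and Pdk1 shared a single Th1 read, while their Treg reads were 4 and 12 and their naive reads 9 and 4.

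Rptor, on chromosome 11, had the most regions, 6 over 150744 bp, and 4.09% of the table's gene identifiers had at least 6. The gene lies on the plus strand in RefSeq, and the region nearest its start (119518751 to 119519183, 433 bp) is labelled exon 2. That region held 12 Treg, 3 Th1 and 4 naive reads, signals of 4.23, 5.04 and 3.98, so that the libraries were nearly level. The other 5 Rptor regions were intronic. The second (119536160 to 119536390) held 5 Treg, 1 Th1 and 2 naive reads, the fewest in all among the 17 regions, with signals of 1.76, 1.68 and 1.99. The third (119542941 to 119543208) held 9 Treg, 0 Th1 and 3 naive reads, with Treg at 3.17 units and naive at 2.99. Both values are below the limit of 5.04 for Th1, so its 0 reads again show no difference.

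The fourth Rptor region (119583216 to 119583453) had the highest mean signal over the 3 libraries among the 17, 4.72 units, and 96.0% of the table's regions were lower. It held 7 Treg, 4 Th1 and 5 naive reads, signals of 2.47, 6.72 and 4.98. A Th1 read weighs 1.68 units in this mean and a Treg read 0.352, and the Th1 signal has an interval of 1.83 to 17.2. By total reads the first Rptor region (19) and Pdk1 (17) held more than its 16. In the fifth (119639710 to 119639998) there were 9 Treg, 1 Th1 and 2 naive reads, signals of 3.17, 1.68 and 1.99. The sixth (119669294 to 119669494) held 8 Treg, 2 Th1 and 6 naive reads, signals of 2.82, 3.36 and 5.98. At the deposited scaling the highest library was Th1 in the first and the fourth region, naive in the second and the sixth. Treg was highest in the third and the fifth. With each library scaled to the same total over the table, Treg was instead highest in the first and the second. In the third, the limit for Th1 was above the Treg signal, so no highest library was resolved. Summed over the gene, 50 Treg, 11 Th1 and 22 naive reads gave mean signals per region of 2.94 (2.18 to 3.87), 3.08 (1.54 to 5.51) and 3.65 (2.29 to 5.53). The gene-wide ratios were 0.804 for Treg over naive (0.478 to 1.39), 0.953 for Treg over Th1 (0.490 to 2.03) and 0.844 for Th1 over naive (0.369 to 1.82).

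**Figure D2:**
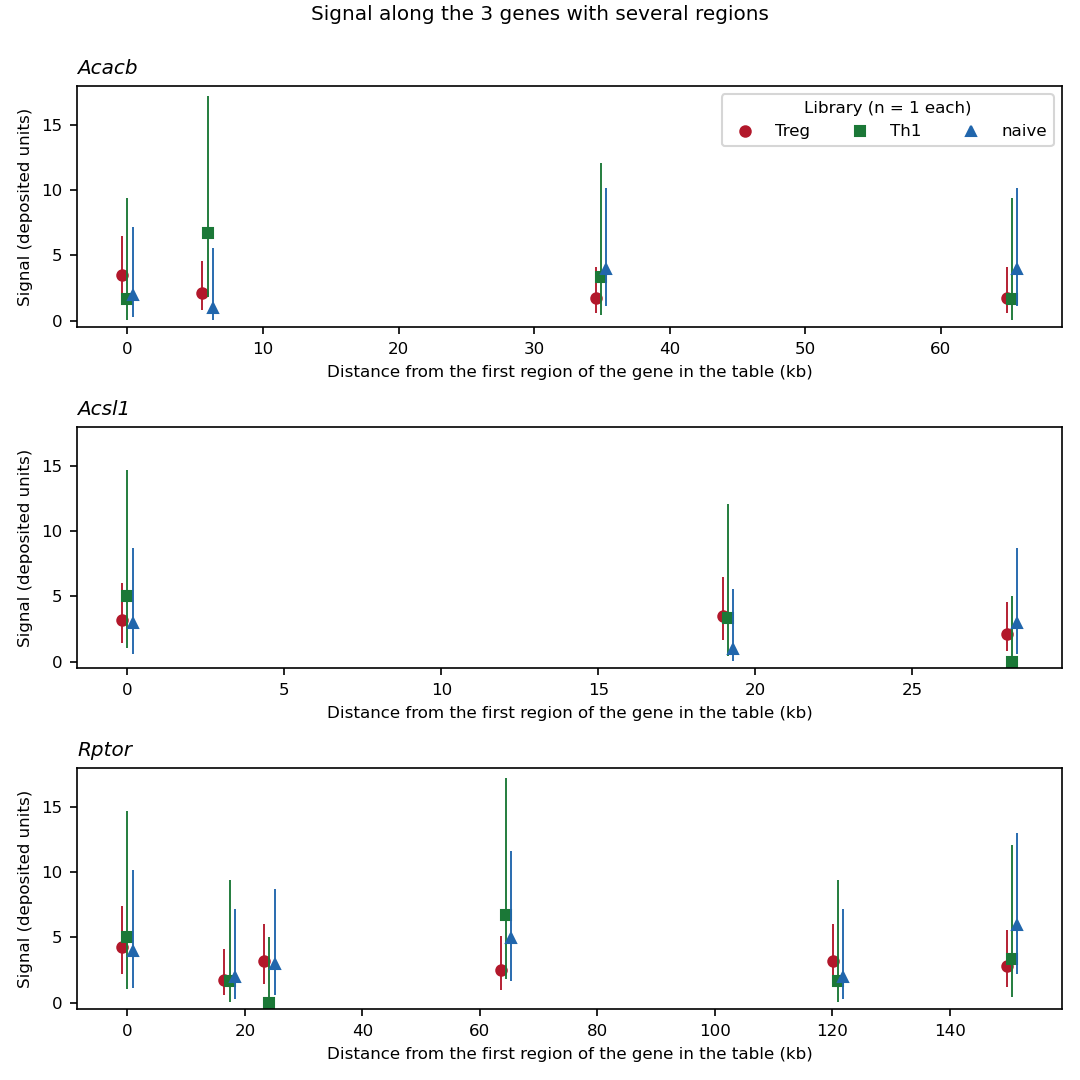
Signal in deposited units (y axis) against the distance in kb from the first region of the gene in the table (x axis) for Acacb, Acsl1 and Rptor, with points set slightly apart for the Treg, Th1 and naive libraries and lines for the exact 95% counting interval, or up to the signal of 3 reads for 0 reads. Within each gene different regions have different libraries on top, although naive is highest in both the third and the fourth Acacb region, and all lines at a region overlap.

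Across the 17 regions no library was highest throughout. At the deposited scaling Treg had the highest signal in 5, Th1 in 4 and naive in 8, against 17.6%, 39.7% and 42.7% of the table's regions. With each library scaled to the same total, the first and the second Rptor region moved to Treg. Per 100 bp of region, the Treg signal ran from 0.450 in the fourth Acacb region to 1.58 in the first, and Pdk1 came next to the top with 1.47. For Th1 the highest value per 100 bp was 2.82, in the fourth Rptor region, and 3 regions were at 0. For naive the range was 0.281, in the second Acacb region, to 3.43 in Hk1. Over the 17 regions the Treg and naive reads had a Pearson r of -0.28 (Spearman rho -0.26), Treg and Th1 reads 0.06 (0.07), and Th1 and naive reads -0.09 (-0.01). Over all 10000 regions the Pearson values were -0.20, 0.02 and -0.25. These are descriptions across places of the same 3 libraries, which share the way the table was selected.

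The region numbers of the table follow position on every chromosome. From the first to the last Rptor region they run over 162 numbers, of which 6 are in the table. For Acacb 4 of 71 numbers are in it and for Acsl1 3 of 42. The intervening regions are not in the table analysed here, so each gene is seen at a few places only. By mean signal the 17 were spread over the range of the table, with 2.96% of all regions below the third Acsl1 region and 96.0% below the fourth Rptor region. Of the 17, 8 exceeded the table's median of 3.06 units.

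Differences in size between pairs of libraries were counted for every region of the table. A region counted as higher or lower when the log2 ratio of the signals, computed after adding 0.5 units to each, reached 1 or -1. Treg was higher than naive in 1 of 17 member regions, the second Acsl1 region, and lower in 1, Hk1, against 8.33% higher and 22.2% lower over the table. When each library was scaled to the same total over the table, the balance over the table turned, to 15.2% higher and 12.3% lower, and 3 member regions were higher, the first and the second Acacb region being added, while Hk1 was still lower. Against Th1, Treg was higher in 4, namely Pdk1, Acsl6, the third Acsl1 and the third Rptor region, and lower in 2, the second Acacb and the fourth Rptor region. The background was 17.0% higher and 21.0% lower, and at equal totals 6 member regions were higher against 22.6% and 2 lower against 15.2%. Th1 was higher than naive in 2, the second Acacb and the second Acsl1 region, against 19.4% of the table. It was lower in 6, namely Hk1, Pdk1, Acsl6, the third Acsl1, the third Rptor and the fourth Acacb region, against 29.0%. Pdk1 and the fourth Acacb region passed narrowly, both at a log2 ratio of -1.04, and at equal totals they stood at -0.98 and only the other 4 were counted, against 21.3% of the table.

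As shares of the 17 regions, the higher and lower counts came to 5.88% and 5.88% for Treg against naive, 23.5% and 11.8% for Treg against Th1, and 11.8% and 35.3% for Th1 against naive. A single region is 5.88% of the 17, so nothing particular to the 7 genes is read from these shares. Of the regions counted, 3 had no Th1 read, namely the third Acsl1, the Acsl6 and the third Rptor region. Their log2 ratios of -2.80, -3.45 and -2.80 for Th1 over naive therefore depend on the added 0.5 units. So do their 2.39, 2.73 and 2.88 for Treg over Th1. Pdk1, the other region with Treg higher than Th1, held 1 Th1 read. The median log2 ratio over the 17 was -0.14 for Treg over naive, 0.05 for Treg over Th1 and -0.22 for Th1 over naive. Over the table the medians were -0.29, -0.22 and -0.19. The comparisons share libraries, since each library enters 2 of the 3. Treg, Th1 and naive each had at least 1 read in 14 of the 17 regions (82.4%), against 85.9% of the table, and the remaining 3 lacked only Th1 reads.

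**Figure D3:**
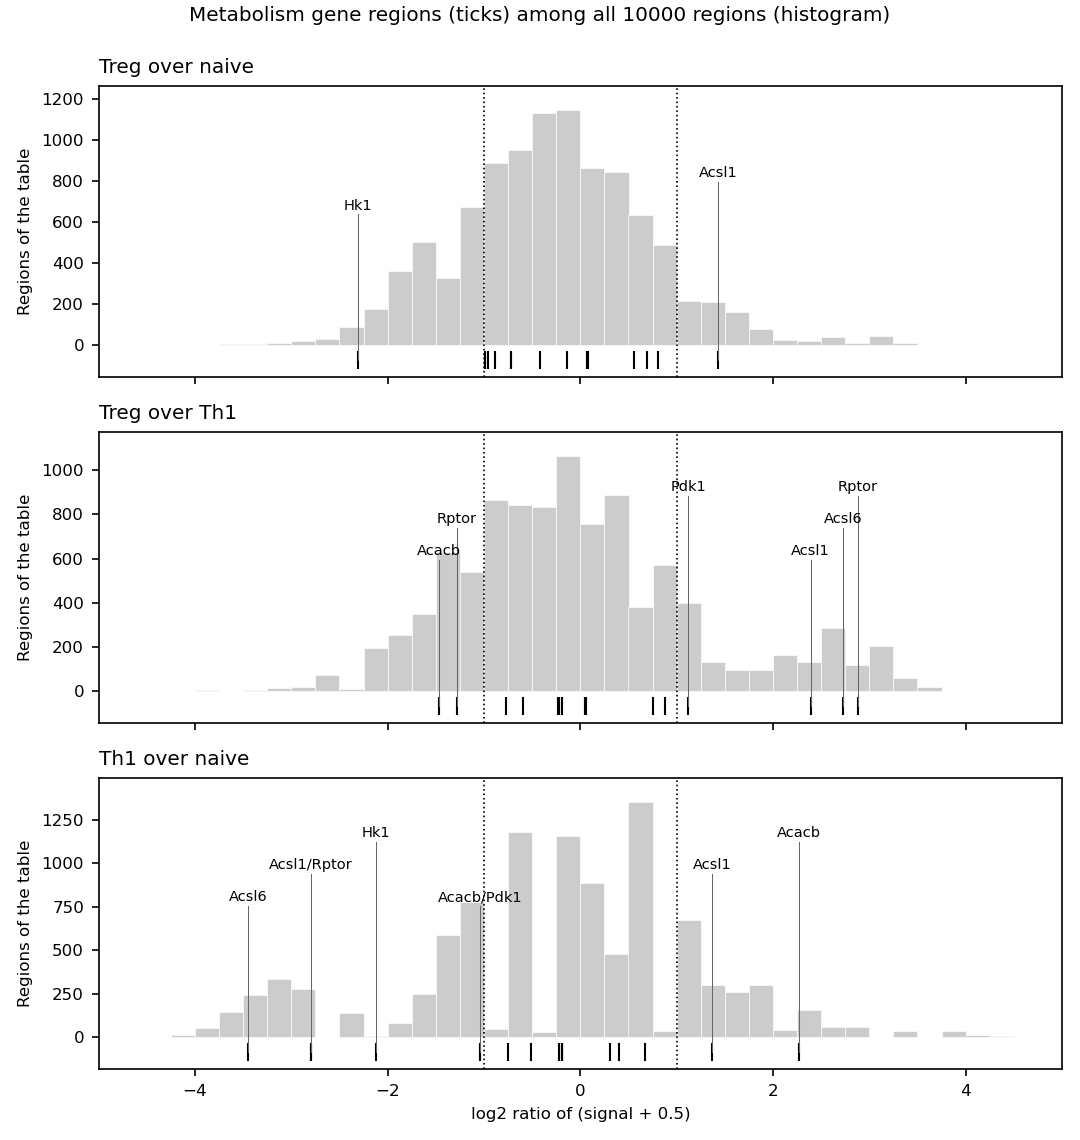
Histograms of the log2 ratio of signal plus 0.5 units (x axis) over all 10000 regions (y axis, number of regions) for Treg over naive, Treg over Th1 and Th1 over naive, with the 17 member regions as ticks below and dotted lines at the size that counts as higher or lower. Gene names stand at the ticks beyond the dotted lines. The left ticks of the bottom panel at -2.80 and -3.45 are regions with no Th1 read, as are those of the middle panel at 2.39, 2.73 and 2.88.

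The read patterns of the members were shared by other genes. The second Acacb region's 6 Treg, 4 Th1 and 1 naive reads recurred in 24 other regions, and the 12, 1 and 4 reads of Pdk1 in 28. The first Acsl1 region, with 9, 3 and 3, matched 57, among them regions of the PI3-kinase gene Pik3cd and of Prr5l, which encodes a partner of the mTORC2 complex. Acsl5 matched 36, Acsl6 29 and the fourth Rptor region 5. Hk1, with 4, 1 and 9, matched 1, an Anapc1 region, a gene of the anaphase-promoting complex that is named here because it was the sole match.

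Other genes of the same pathways were taken from lists of fatty acid, glucose and mTOR genes. Apart from the 7 members, 48 of 170 listed genes had a region, 28.2%, against 22.1% of 21900 protein-coding genes; gene length was not taken into account. The fatty acid list gave 14 of 53 genes with 19 regions. Fabp5, a carrier of fatty acids in the cytosol, had the highest mean signal, in exon 2, with 8 Treg, 8 Th1 and 3 naive reads. Slc27a2, a fatty acid transporter with synthetase activity, followed with a promoter region of 4 Treg, 6 Th1 and 4 naive reads. Acsbg1, another acyl-CoA synthetase, held 12, 2 and 5 in exon 11, and Cd36, a fatty acid receptor, 9, 2 and 5 in an intron. In this list, at the deposited scaling, 1 of 19 regions was higher and 2 lower in Treg than in naive, against 8.33% and 22.2% of the table. The 1 higher region, of Acadl, held 0 naive reads. Against Th1, Treg was higher in 5 and lower in 4, beside 17.0% and 21.0% of the table. Th1 was higher than naive in 6 and lower in 7, beside 19.4% and 29.0%. The 5 with Treg higher than Th1 all held 0 Th1 reads and are among those 7. Their ratios to Th1, and that of Acadl to naive, depend on the added 0.5 units. Of these 19 regions, 6 lacked Th1 or naive reads. Among them were both regions of Cpt1a, the carnitine transferase that malonyl-CoA inhibits, a gene named after its values were seen. The Cpt1a regions held 11 and 8 Treg, 0 and 0 Th1, and 2 and 4 naive reads. Their Treg signals were 3.88 and 2.82 and their naive signals 1.99 and 3.98. All are below the 5.04 units that 0 Th1 reads allow, so a lower Th1 level was not detectable.

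In the glucose list 13 of 53 other genes had 14 regions, all of them read in Treg, Th1 and naive. Eno1, the glycolytic enolase, had 5 Treg, 5 Th1 and 3 naive reads in exon 4, and whether reads of its near copies are mixed in was not examined. An intron of Slc2a3, a glucose transporter, held 15 Treg, 4 Th1 and 1 naive reads. Pfkfb4 and Pfkfb2, bifunctional enzymes that set the level of a glycolytic activator, stood next, with 13, 3 and 3 reads in an intron and 7, 4 and 3 in exon 8. The relatives of Pdk1 in the list were Pdk2, with a promoter region of 5 Treg, 2 Th1 and 2 naive reads, and Pdk3, with an intronic one of 9, 2 and 1. At the deposited scaling Treg was higher than naive in 2 of the 14 regions and lower in 1 (8.33% and 22.2% of the table). Treg was higher than Th1 in 2 and lower in 3 (17.0% and 21.0%). Th1 was higher than naive in 6 and lower in 2, against 19.4% and 29.0% of the table, with a median log2 ratio of 0.65 against -0.19. Of the members, Hk1 counted as lower, and so did Pdk1 at the deposited scaling, though not at equal totals or with 2 units added (log2 ratio -0.70). No call is made on the list from these counts.

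The mTOR list had 21 of 64 other genes with 39 regions, 33 of them intronic. Slc38a9, the lysosomal amino acid sensor of mTORC1, had the highest mean signal, in an intron with 10 Treg, 6 Th1 and 7 naive reads. Pik3ca, a catalytic PI3-kinase subunit, held 10, 4 and 3 in exon 3, Prr5l 10, 3 and 4, and Tfeb (labelled Tcfeb in the table), a transcription factor that mTORC1 keeps in the cytosol, 7, 3 and 4. At the deposited scaling Treg was higher than naive in 0 and lower in 2 of the 39 regions, against 8.33% and 22.2% of the table. The list was not recounted at equal totals, where the table's shares were 15.2% and 12.3%. The 0 depends on the scaling. Eif4ebp1 held 10 Treg and 2 naive reads, as did the first Acacb region, which counted as higher at equal totals. At the deposited scaling Treg was higher than Th1 in 7, each with 0 or 1 Th1 read, and lower in 8, against 17.0% and 21.0% of the table. Th1 was higher than naive in 7 and lower in 8, against 19.4% and 29.0%, and no call is made on this list either. Deptor, an inhibitor of mTOR, and Tsc1, a brake upstream of mTORC1, had 3 and 2 regions, with Treg reads of 7 to 10, Th1 reads of 0 to 2 and naive reads of 2 to 5. The 6 Rptor regions covered wider ranges, 5 to 12 Treg, 0 to 4 Th1 and 2 to 6 naive reads.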

How the data were processed

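Methylated DNA was captured and sequenced from 4 T cell populations, 1 library each. The authors deposited 1 table of regions with a signal per library, a scaled number of reads. Per the submitters' processing notes, Bowtie 0.12.7, FastQC and the mm9 build were used; for region calling, selection of the 10000 regions, scaling and reads with several matches, no method was stated (not given in the sources used here). Coordinates (mm9) and gene assignments follow the deposited table, and exon numbers refer to transcripts it does not name. Reads were recovered by dividing each signal by the library's constant, and 100% of Treg, Th1 and naive values were whole numbers of reads to a relative tolerance of 1e-06. The Th17 column is 0 throughout. All per-sample columns were matched by name and used.

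With 1 library per population there is no test between populations. Intervals are exact Poisson intervals for signals and exact conditional binomial intervals for ratios, at 95%. Zero reads were given a limit of 3 reads. Capture without molecular identifiers means that reads need not be independent molecules. The size rule, an exact binomial test with Benjamini-Hochberg adjustment at 0.05 and the alternatives were run over all 10000 regions with Python 3.11.15 and SciPy 1.17.1, after the tests had been tried on simulated reads.

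Every member region is described. Of the other list genes the 4 with the highest mean signal in 1 region were to be named, and list genes with the same reads as a member's highest region; Cpt1a, Pdk2, Pdk3, Deptor, Tsc1 and Anapc1 were added after their values were seen. The members and lists were chosen with earlier results of these data known. List genes were matched by symbol or synonym in a RefSeq GRCm38.p6 table, in which all 177 were found, and strands are from RefSeq. No mm9 genome sequence was used here, so CpG content and mappability of the regions were not examined.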

Additional observations from a re-analysis of the deposited data

How the results depend on the processing

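No paired analysis was possible because each population has 1 library. Counts of member regions under the size rule moved as follows. Treg higher than naive gave 1 region, 0 at a log2 ratio of at least 1.5, 0 with a pseudocount of 2 and 3 at equal table totals. Treg lower than naive gave 1, Hk1, under every alternative but the adjusted exact test, which gave 0. Treg higher than Th1 gave 4, and 3 to 6 over the settings of size, pseudocount, filter and totals. Treg lower than Th1 gave 2, and 0 at 1.5. A pseudocount of 2 left 1, the second Acacb region, and the filter of at least 12 reads 1, the fourth Rptor region. Th1 higher than naive gave 2 and 1 under the same 3 settings. That 1 was the second Acsl1 region with the filter and the second Acacb region otherwise. Th1 lower than naive gave 6 and 4 under size, pseudocount, filter and totals, though not the same 4. The filter kept Pdk1 and dropped the third Acsl1 region, while the other settings did the reverse. Requiring a counting interval that excludes 1, or the adjusted exact test, gave 0 in these comparisons, with Hk1 in Treg against naive as the exception for the interval. For Treg higher than Th1 the interval rule passed 0 of all 10000 regions, so the 0 there shows nothing about the members. The adjusted exact test passed at most 1 of the 10000 regions in any comparison, so its 0 counts show as little. Requiring 2 reads in each of Treg, Th1 and naive left 6 of the 17 regions, down from 14. Over the table the share fell from 85.9% to 50.0%. Summing regions within 1000 bp changed no member count. Apart from shifts set by the construction of each setting, the cause was not tested.

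Over the whole table the counts moved as well. Treg was higher than naive in 833 regions and lower in 2217, but in 1518 and 1233 at equal table totals, which shift Treg by 0.24, Th1 by -0.08 and naive by -0.13 on the log2 scale. Against Th1, Treg was higher in 1701 and lower in 2096, and in 2261 and 1522 at equal totals. Th1 was higher than naive in 1935 and lower in 2899, and in 1963 and 2129 at equal totals. In the order Treg higher and lower than naive, Treg higher and lower than Th1, Th1 higher and lower than naive, a log2 ratio of 1.5 left 405, 1211, 1169, 926, 965 and 1532 regions. A pseudocount of 2 left 294, 1013, 841, 991, 1023 and 1367, a minimum of 12 reads 685, 712, 1038, 937, 1332 and 1575, and the counting interval 22, 445, 0, 283, 73 and 15. The adjusted exact test called 1 region, lower in Treg than in naive, and 0 otherwise. Depth limits the Th1 values most, with a median of 1 read per member region.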
